A study of Mus musculus with 6 samples.

Results

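The genes described here are 35 macrophage and pan-leukocyte genes, measured in RNA pulled down with tagged ribosomes from neonatal mouse kidneys. They are members of a fixed list of names, and the list was chosen by measured values: it extends a shorter one whose tested genes were all lower in the Foxp1-deficient libraries. The genotype values below are therefore a description of the members and carry no test. All 35 have a row among the 48587 rows of the count table. Of the members, 31 passed the filter on low counts and belong to the 14311 genes tested, while Cd163, Lyve1, Folr2 and Timd4 did not pass it.

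The series holds 3 libraries labelled Foxp1-deficient (Cdh16Cre;Foxp1fl/fl;RiboTag) and 3 labelled littermate control (Cdh16Cre;Foxp1fl/+;RiboTag). All 6 carry the Cre driver and the RiboTag allele, through which cells where Cre has acted make HA-labelled ribosomes, and the control animals carry 1 floxed Foxp1 allele as well. The Cdh16 promoter drives Cre mainly in kidney tubule epithelium, and the labels call the material kidney tubular cells. The treatment label names a vehicle for control libraries and a chronic acid load for Foxp1-deficient ones, while the protocols describe no acid load, so that genotype and treatment label cannot be told apart. Kidneys came from PBS-perfused neonates, and ribosomes were captured overnight with anti-HA beads. No label says that libraries of a group come from separate animals, so each p-value below reflects library-to-library variation only, and that variation may be technical.

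Macrophages settle in the kidney before birth. Their differentiation depends on the ETS-family factor Spi1, also called PU.1, and their survival on the receptor Csf1r, which binds colony-stimulating factor 1 and interleukin 34. Resident macrophages clear dying cells and debris: they make the opsonin C1q, bind antibody-coated particles through Fc receptors, and signal through the adaptors Fcer1g and Tyrobp, whose cytoplasmic ITAM motifs recruit the kinase Syk. Other members, such as Ptprc (CD45) and Coro1a, are found across the leukocytes.

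Libraries are named by the number in their titles, and no label says that libraries of equal number are pairs. Library totals ran from 9710048 to 18958196 counts. The libraries numbered 2 stood apart in both groups, with 14285 genes detected in the Foxp1-deficient one and 13885 in the control one, against 18241 to 22190 in the other 4. Foxp1 itself had 36.3, 9.17 and 33.7 CPM (the count scaled to a fixed library total) in Foxp1-deficient libraries 1, 2 and 3 and 51.4, 26.0 and 40.5 CPM in control libraries 1, 2 and 3. The Foxp1-deficient library was the lower within each number, the groups overlapped, and counts over the whole gene do not separate the floxed exons from the rest. Cdh16, the gene whose promoter drives Cre, was at 48.5 CPM in Foxp1-deficient library 3 and 48.6 CPM in control library 3, and between 0.297 and 9.23 CPM in the remaining 4. Summed over 12 tubule markers, the level was 63.6, 104 and 636 CPM in Foxp1-deficient libraries and 39.3, 55.9 and 507 CPM in control libraries, while 9 stromal genes summed to 5433 to 25778 CPM in Foxp1-deficient libraries and 13482 to 27657 CPM in control libraries. The labelled tubular cell type thus had its markers mainly in the libraries numbered 3.

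PU.1 binds GGAA-centred sites preceded by purines, and such sites are a known feature of macrophage promoters. The start regions of 26 members were found in the RefSeq promoter table (build GRCm38.p6), each covering 250 bases before and 50 after the start of a transcript. The motif GAGGAAGT, searched on both strands, was found in 5 of these 26 members (19.2%), against 997 of the 27025 genes in the table (3.69%). The 5 matches are shown to let their flanks be compared, on the strand that reads GAGGAAGT, with the motif in capitals and 10 bases on each side. All but F13a1 are read on the strand opposite to the gene.
Ctss: catccacaatGAGGAAGTgaactttcat
Cd53: cgagaagagtGAGGAAGTgagactgagt
C1qc: gtgccaaaatGAGGAAGTgtctgccgtc
Pf4: gatacaggatGAGGAAGTgctctgcaga
F13a1: gagtccttttGAGGAAGTacccagaggc
The capitals lie at chr3:95526784-95526791 (Ctss), chr3:106790136-106790143 (Cd53), chr4:136893102-136893109 (C1qc), chr5:90772425-90772432 (Pf4) and chr13:37049192-37049199 (F13a1). The match lies upstream of the transcript start in C1qc and Pf4, spans it in Ctss, and lies just downstream of it in Cd53 and F13a1. The shorter GAGGAA, which every longer match contains, was in 17 of the 26 members (65.4%) and in 8446 of the 27025 genes (31.3%). A match describes the letters only, and no binding was measured here.

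The C1q genes are shown in more detail because they are neighbours that encode the 3 chains of the same protein. C1qb, C1qc and C1qa lie within 18675 bases of chromosome 4 (136880129 to 136898803, mm10, all on the minus strand). The start regions of 2 of them follow, from 250 bases before to 50 bases after the transcript start, with GAGGAA, or its complement TTCCTC, in capitals. The C1qb window is chr4:136886151-136886450 and the C1qc window chr4:136892865-136893164, both on the minus strand of GRCm38.p6.
C1qb: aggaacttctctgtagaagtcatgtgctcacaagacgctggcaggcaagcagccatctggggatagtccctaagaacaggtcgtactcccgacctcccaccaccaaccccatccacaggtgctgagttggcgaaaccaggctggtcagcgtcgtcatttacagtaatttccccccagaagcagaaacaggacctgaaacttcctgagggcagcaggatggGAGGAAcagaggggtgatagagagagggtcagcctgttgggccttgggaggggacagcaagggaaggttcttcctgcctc
C1qc: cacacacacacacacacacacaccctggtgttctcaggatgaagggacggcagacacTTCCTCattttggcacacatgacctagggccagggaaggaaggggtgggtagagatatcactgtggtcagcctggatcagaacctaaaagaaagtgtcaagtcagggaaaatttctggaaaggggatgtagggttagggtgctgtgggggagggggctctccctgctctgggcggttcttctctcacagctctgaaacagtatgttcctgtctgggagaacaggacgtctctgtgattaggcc
Counted from 1 at the 5′ end of each window, the match starts at position 221 in C1qb, close to the transcript start, and at position 58 in C1qc, far upstream of it. The longer form is present in the C1qc window and not in the C1qb window.

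Summed over these 35 members, which were chosen by this contrast, RNA was lower in Foxp1-deficient libraries than in control libraries of the same number. The amount varied widely. The 35 members summed to 317, 836 and 1755 CPM in Foxp1-deficient libraries 1, 2 and 3, and to 1096, 1567 and 2640.1 CPM in control libraries 1, 2 and 3. The means were 969 ± 728 CPM in Foxp1-deficient and 1768 ± 791 CPM in control libraries (SD, n = 3 each), a ratio of 0.548. The groups overlapped, since Foxp1-deficient library 3 lay above control libraries 1 and 2. Within each number the Foxp1-deficient library was lower, at 0.289 of its control for number 1, 0.533 for number 2 and 0.665 for number 3. In ribosome pulldowns such as these, fewer cells of a type, less RNA per cell and a different carry-over of untagged RNA cannot be told apart. Foxp1-deficient library 1 held the lowest value of 23 of the 35 members and control library 3 the highest value of 25. For Cd163 and Folr2 the lowest value was a count of 0, shared with Foxp1-deficient library 2 and control library 2.

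**Figure D1:**
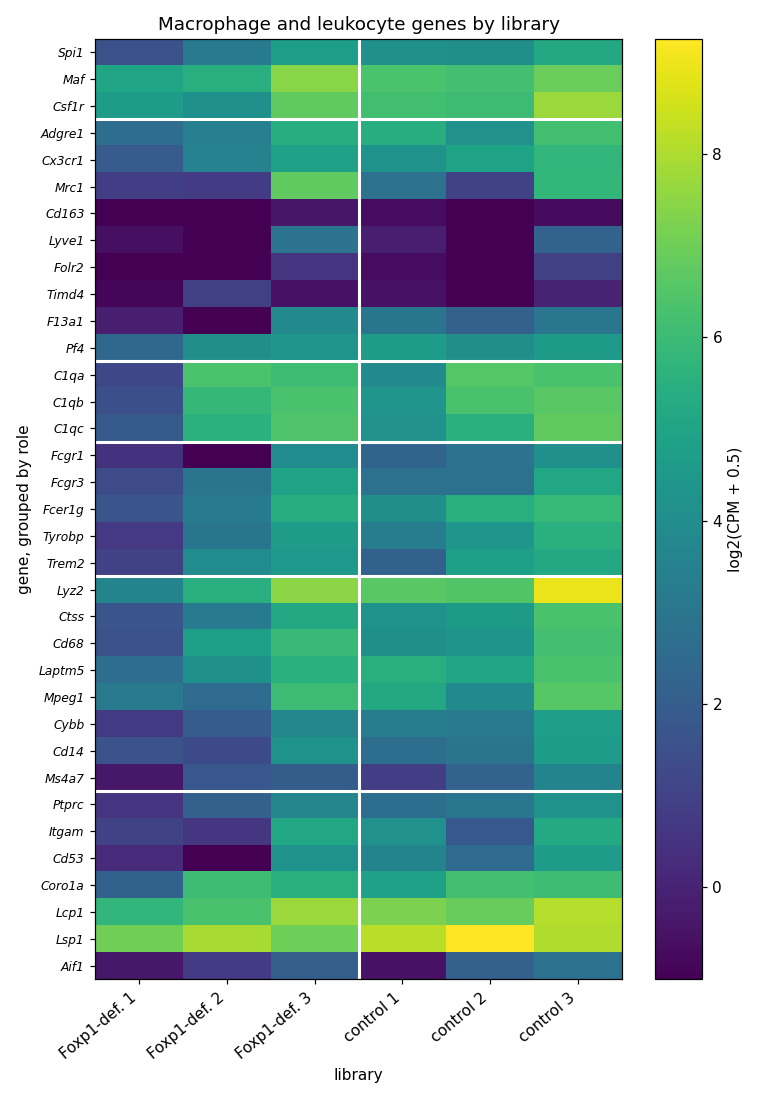
Level of each of the 35 members (rows, grouped by role) in each library (columns, Foxp1-deficient on the left and control on the right), as log2(CPM + 0.5). Foxp1-deficient library 1 is the darkest column (lowest) in most rows, holding the lowest value of 23 members (ties at 0 included). Control library 3 is the brightest, holding the highest value of 25.

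No member passed the genotype test, and few genes did. By edgeR's quasi-likelihood test with Benjamini-Hochberg adjustment, 0 of the 14311 genes and 0 of the 31 tested members were called (0% called). At an unadjusted p under 0.05 the test gave 103 genes (0.720%) and 0 members. DESeq2 called 6 of the 14084 genes to which it gave an adjusted p (0.0426%), none of them a member, and limma-voom called 0 of 14311 (0%). With number as a block, edgeR again called 0 genes (0%), and at an unadjusted p under 0.05 it gave 762 genes (5.32%) with 14 of the 31 members among them. Since this contrast chose the members, nothing is read from their counts.

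The direction was nonetheless shared. Of the 31 tested members, 30 had a negative log2 fold change, against 46.4% of all genes tested, and the exception was Mrc1. The members' median was -0.93 (range -1.55 to 0.77) against 0.03 over all genes, and with the block it was -1.33 (range -3.16 to -0.41) against -0.01. In all 3 numbers 24 of the 31 were lower in the Foxp1-deficient library, against 16.1% of all genes. Lsp1 alone had every Foxp1-deficient library below every control library, a pattern found in 2.07% of all genes. These shares describe how the list was chosen. Without Foxp1-deficient library 1 the members' median was -0.43, with 23 of 33 lower, and without control library 3 it was -0.44. Without Foxp1-deficient library 3 it was -2.01. The size of the difference thus depended on single libraries.

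Among the lineage genes, the receptor gene Csf1r differed in the same direction within every number. It had 24.6, 17.0 and 106 CPM in Foxp1-deficient libraries 1, 2 and 3 and 70.4, 64.4 and 211 CPM in control libraries 1, 2 and 3. Its log2 fold change was -1.27 (SE 0.71), and within numbers 1, 2 and 3 the log2 ratios of (CPM + 0.5) were -1.50, -1.89 and -0.99. Foxp1-deficient library 3 was above control libraries 1 and 2, so the groups overlapped. Of its exon length 17.83% is shared with Hmgxb3 on the other strand, and the counts use no strand. Fragments from that part therefore cannot be assigned by strand, and how they were counted is not known. Spi1 (PU.1) had 2.44, 8.75 and 26.4 CPM in Foxp1-deficient libraries and 17.0, 16.6 and 36.1 CPM in control libraries, with a log2 fold change of -0.91 (SE 0.78). Maf, a bZIP factor of macrophages that other tissues also express, had 33.2, 43.3 and 172 CPM in Foxp1-deficient libraries and 81.0, 73.3 and 121 CPM in control libraries. Its fold change was -0.21 (SE 0.58), and it was higher in Foxp1-deficient library 3 than in control library 3.

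Of the tissue macrophage surface genes, some were seen in every library and others mostly in the libraries numbered 3. Adgre1, which encodes F4/80, had 5.83, 10.2 and 41.1 CPM in Foxp1-deficient libraries and 41.9, 17.8 and 71.5 CPM in control libraries, a log2 fold change of -1.20 (SE 0.73). The fractalkine receptor Cx3cr1 had 3.39, 11.2 and 28.5 CPM in Foxp1-deficient libraries and 18.4, 30.1 and 54.0 CPM in control libraries, a log2 fold change of -1.27 (SE 0.74). Both were lower in the Foxp1-deficient library within every number, with overlapping groups.

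Mrc1, the mannose receptor CD206, which some endothelia also make, behaved otherwise. It had 1.37, 1.24 and 108 CPM in Foxp1-deficient libraries and 6.79, 1.51 and 54.9 CPM in control libraries. Nearly all of its signal came from the libraries numbered 3, where the Foxp1-deficient one was higher, and its log2 fold change of 0.77 (SE 1.72) became -0.41 (SE 0.70) with the block. Lyve1, a hyaluronan receptor of lymphatic endothelium and of some resident macrophages, had 0.178, 0 and 7.07 CPM in Foxp1-deficient libraries and 0.42, 0 and 4.17 CPM in control libraries, again mostly in number 3. F13a1, the coagulation factor XIII A chain, ran from 0 to 14.6 CPM in Foxp1-deficient and from 3.91 to 7.58 CPM in control libraries and was also higher in Foxp1-deficient library 3 than in its control. The haemoglobin scavenger receptor Cd163 had 0, 0 and 5 counts in Foxp1-deficient libraries and 2, 0 and 2 counts in control libraries. Folr2 stayed at or under 1.43 CPM and Timd4, a receptor for phosphatidylserine, at or under 1.44 CPM in every library, and Folr2 shares 63.07% of its exon length with another gene. A count of 0 allows up to 0.309 CPM in Foxp1-deficient library 2 and 0.266 CPM in control library 2, counting error only. Several values of these low genes were at or near this limit, while Lyve1 was above it in both libraries numbered 3. Pf4, a chemokine of platelets that some macrophages make, had 4.99, 16.4 and 20.2 CPM in Foxp1-deficient libraries and 25.1, 16.4 and 23.4 CPM in control libraries. Its log2 ratio was -2.22 in number 1, close to 0 in number 2 and -0.21 in number 3.

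The C1q chains were low in both libraries numbered 1 and lower in the Foxp1-deficient one of these. C1qa had 1.84, 80.8 and 67.1 CPM in Foxp1-deficient libraries and 14.1, 94.4 and 79.1 CPM in control libraries. C1qb had 2.32, 55.7 and 78.3 CPM in Foxp1-deficient libraries and 19.6, 79.3 and 98.2 CPM in control libraries. C1qc had 3.21, 46.1 and 86.2 CPM in Foxp1-deficient libraries and 17.6, 45.5 and 107 CPM in control libraries. Among the 4 libraries numbered 2 and 3 the groups overlapped for C1qa and C1qc, while both Foxp1-deficient values of C1qb lay just below both control values. Their log2 fold changes were -0.29 (SE 1.20) for C1qa, -0.52 (SE 1.09) for C1qb and -0.29 (SE 1.03) for C1qc. Within number 1 the log2 ratios were -2.64, -2.83 and -2.29, and within numbers 2 and 3 they lay between -0.50 and 0.02. The chains assemble in equal numbers, and per kilobase of exon the highest of the 3 levels was 1.28, 3.25 and 1.61 times the lowest in Foxp1-deficient libraries 1, 2 and 3 and 1.97, 3.85 and 1.63 times in control libraries.

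Of the Fc receptor and adaptor genes, both ITAM adaptors were lower in the Foxp1-deficient library within every number. Fcer1g, the common Fc receptor gamma chain, had 2.79, 8.65 and 41.2 CPM in Foxp1-deficient libraries and 16.3, 42.5 and 58.1 CPM in control libraries, a log2 fold change of -1.25 (SE 0.91). Tyrobp (DAP12) had 1.13, 7.52 and 24.5 CPM in Foxp1-deficient libraries and 9.66, 20.5 and 45.3 CPM in control libraries, a log2 fold change of -1.22 (SE 0.99). Trem2, a lipid-sensing receptor that signals through Tyrobp, had 1.49, 15.0 and 21.5 CPM in Foxp1-deficient libraries and 3.99, 27.5 and 35.9 CPM in control libraries. Its log2 ratios within numbers 1, 2 and 3 were -1.18, -0.85 and -0.72, among the most even of the members, and its log2 fold change was -0.82 (SE 1.05), or -0.97 (SE 0.27) with the block. Fcgr3, a low-affinity IgG receptor, had 2.08, 7.31 and 30.5 CPM in Foxp1-deficient libraries and 6.86, 6.75 and 34.2 CPM in control libraries, close to each other in numbers 2 and 3 (log2 ratios 0.11 and -0.16). The high-affinity receptor Fcgr1 ranged from 0 to 15.1 CPM in Foxp1-deficient and from 4.41 to 17.4 CPM in control libraries.

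The phagocytosis and lysosome genes had a mean sum of 187 ± 202 CPM in Foxp1-deficient and 439 ± 388 CPM in control libraries (SD, n = 3 each). Lyz2, lysozyme of macrophages, had 11.9, 42.8 and 178 CPM in Foxp1-deficient libraries and 97.4, 89.4 and 498 CPM in control libraries. Its log2 fold change was -1.55 (SE 0.99) with all libraries and -0.44 without control library 3. Foxp1-deficient library 3 was above control libraries 1 and 2. Lyz2 has a near-identical neighbour, Lyz1, so its counts are uncertain. Ctss, the protease cathepsin S, had 2.73, 8.55 and 36.1 CPM in Foxp1-deficient libraries and 18.3, 23.3 and 79.8 CPM in control libraries, a log2 fold change of -1.37 (SE 0.91). Laptm5, a lysosomal membrane protein, had 5.89, 17.3 and 44.7 CPM in Foxp1-deficient libraries and 43.1, 33.5 and 79.0 CPM in control libraries, a log2 fold change of -1.19 (SE 0.67). Mpeg1 (perforin-2) had 8.32, 5.56 and 64.8 CPM in Foxp1-deficient libraries and 36.3, 14.6 and 95.1 CPM in control libraries, a log2 fold change of -0.93 (SE 0.94). Each of these 4 was lower in the Foxp1-deficient library within every number, with overlapping groups.

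Cybb, the catalytic chain of the phagocyte NADPH oxidase, had 1.19, 3.40 and 12.5 CPM in Foxp1-deficient libraries and 9.59, 9.05 and 26.2 CPM in control libraries. Cd14, the lipopolysaccharide co-receptor, had 2.56, 1.96 and 18.2 CPM in Foxp1-deficient libraries and 6.09, 7.10 and 24.3 CPM in control libraries. These were again lower within every number. Cd68, a lysosomal glycoprotein, had 2.44, 27.0 and 59.1 CPM in Foxp1-deficient libraries and 16.9, 19.4 and 71.9 CPM in control libraries, and was the higher in Foxp1-deficient library 2. Ms4a7, a membrane protein of macrophages, ranged from 0.297 to 3.59 CPM in Foxp1-deficient and from 1.33 to 12.0 CPM in control libraries.

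The pan-leukocyte genes summed to 189, 395 and 449 CPM in Foxp1-deficient libraries and 505, 819 and 692 CPM in control libraries, and these groups did not overlap. The list was led by Lsp1, an actin-binding protein of leukocytes that was also the member of highest mean CPM. Without Lsp1 the sums of the groups overlapped, and so did the values of each other gene of the list. Lsp1 had 129, 244 and 126 CPM in Foxp1-deficient libraries and 291, 611 and 264 CPM in control libraries, and every Foxp1-deficient library lay below every control library. Its log2 fold change was -1.21 (SE 0.62), and -1.18 (SE 0.12) with the block. Within numbers 1, 2 and 3 its log2 ratios were -1.17, -1.33 and -1.07, so the difference had about the same size in each. With the libraries numbered 2 left out and the number as a block, edgeR called 30 of 15303 genes (0.196%), with Lsp1 the only member of 33 among them, from which nothing is read since the rule used this contrast. Like C1qa and Coro1a, Lsp1 was highest in number 2 in both groups. It made up 40.7%, 29.1% and 7.16% of the members' counts in Foxp1-deficient libraries and 26.6%, 39.0% and 9.99% in control libraries. Without it the remaining 34 members summed to 188, 592 and 1629 CPM in Foxp1-deficient libraries and 805, 956 and 2376 CPM in control libraries, a ratio of means of 0.582.

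The actin-bundling protein Lcp1 (L-plastin) had 52.9, 78.3 and 210.2 CPM in Foxp1-deficient libraries and 149, 115 and 273 CPM in control libraries, a log2 fold change of -0.66 (SE 0.54). Coro1a, an actin regulator, had 4.10, 67.4 and 43.6 CPM in Foxp1-deficient libraries and 28.6, 72.9 and 66.8 CPM in control libraries. Both were lower within every number, Coro1a by little in number 2 (log2 ratio -0.11). Itgam (CD11b), an integrin chain of myeloid cells, had 1.49, 1.03 and 34.8 CPM in Foxp1-deficient libraries and 17.7, 3.02 and 38.6 CPM in control libraries. Its log2 ratio was -3.20 in number 1, -1.20 in number 2 and -0.15 in number 3. The tetraspanin Cd53 had 0.654, 0 and 18.4 CPM in Foxp1-deficient libraries and 12.0, 5.50 and 24.7 CPM in control libraries. Ptprc (CD45) ranged from 1.01 to 12.3 CPM in Foxp1-deficient and from 6.02 to 18.9 CPM in control libraries. Aif1 (IBA1), an actin-binding protein used as a macrophage marker, ranged from 0.297 to 3.85 CPM in Foxp1-deficient and from 0.21 to 6.59 CPM in control libraries and was the only member that was not lower in number 1.

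**Figure D2:**
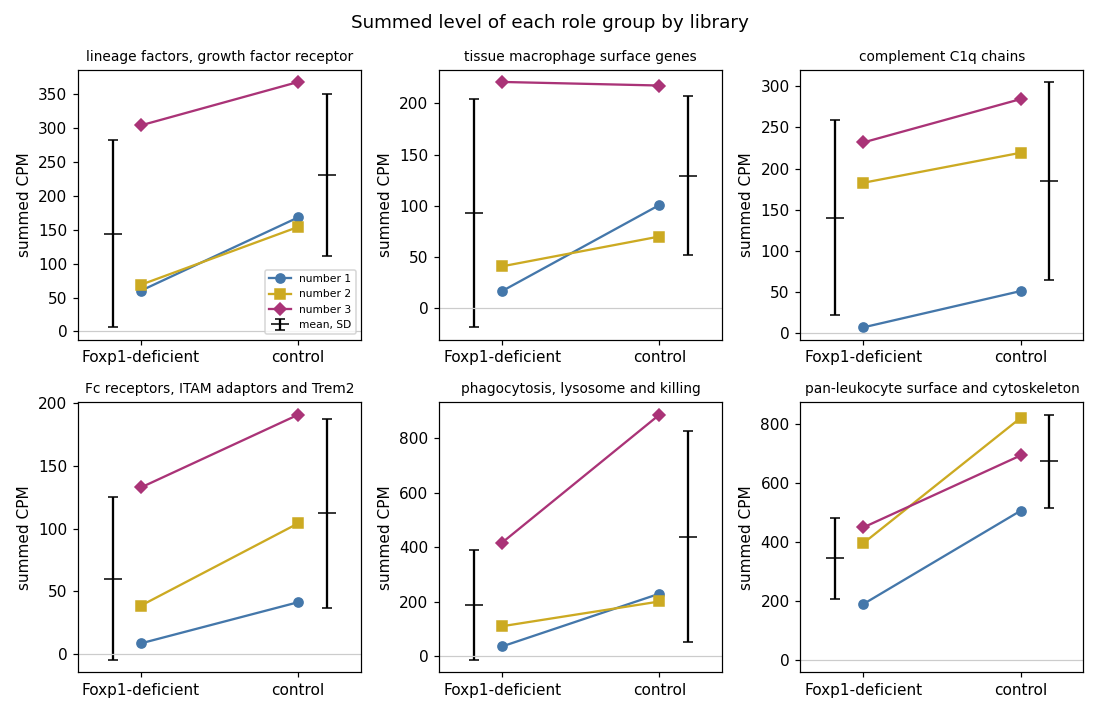
Summed CPM of each of the 6 role groups (vertical axis) in Foxp1-deficient (left) and control libraries (right), with lines joining libraries of equal number and bars giving the mean and SD of 3 libraries. Phagocytosis and lysosome genes averaged 187 CPM in Foxp1-deficient and 439 CPM in control libraries. The points of the groups overlap in every panel except that of the pan-leukocyte genes, where Lsp1 is the only single gene without overlap.

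The median difference was largest in number 1 and smallest in number 3. Over the tested members, the median log2 ratio of Foxp1-deficient over control was -2.29 in number 1, -0.93 in number 2 and -0.49 in number 3, while the median over all genes lay within 0.02 of 0 in each. In number 1, 30 of the 31 members were lower, against 50.0% of all genes. In numbers 2 and 3 it was 28 of 31 each, against 49.1% and 47.2% of all genes. Counting all 35 members, 24 were lower in 3 numbers, 9 in 2 numbers and 2 in 1 number. In number 3 the 5 members that were higher were Maf, Mrc1, Cd163, Lyve1 and F13a1. The rule used these ratios, and the order of their sizes over numbers was not tested.

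**Figure D3:**
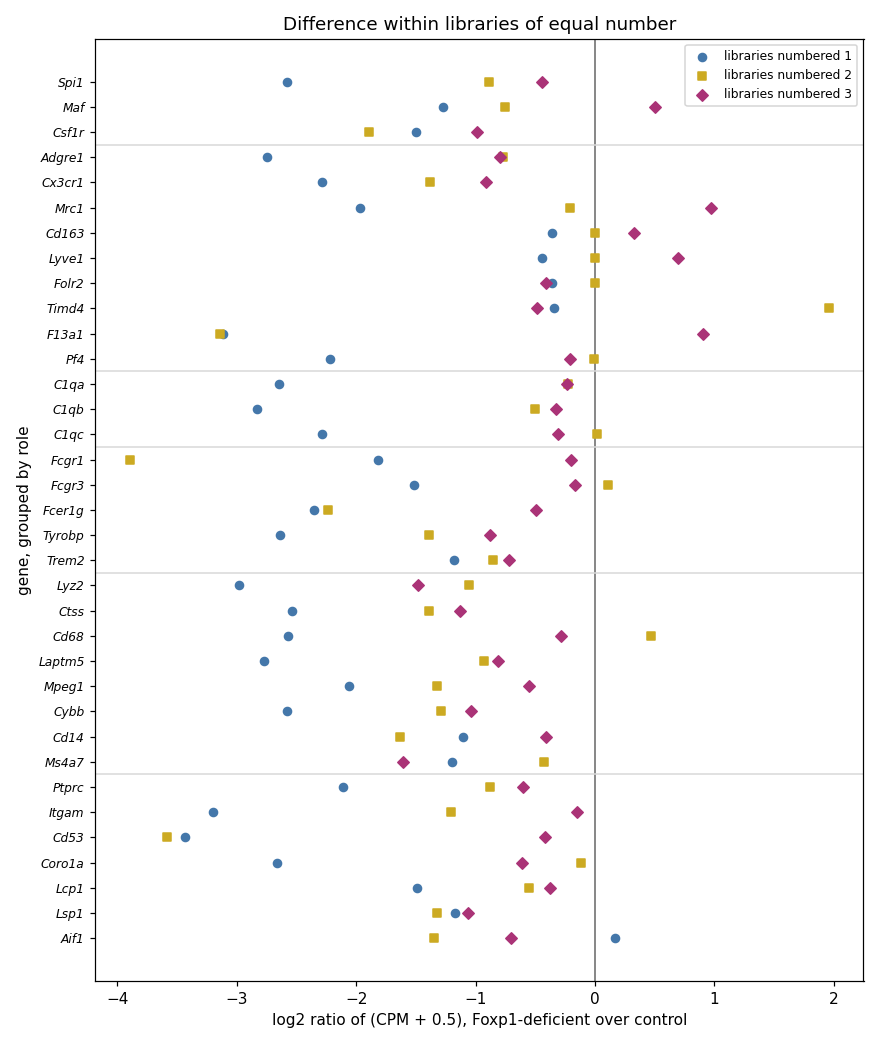
Log2 ratio of (CPM + 0.5), Foxp1-deficient over control, within each replicate number (horizontal axis; 3 markers a gene) for the 35 members grouped by role (vertical axis). For most genes the marker of number 1 lies farthest to the left, with a median of -2.29 over the tested members, and that of number 3 nearer to 0, with a median of -0.49.

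How the members varied over the libraries apart from genotype is a contrast that the rule did not use. In an edgeR fit with genotype and number, 16 of the 31 members (51.6%) passed the F test on number, against 30.7% of all genes tested (4394 of 14311). The lowest adjusted p-values belonged to Lsp1 (0.00632), Trem2 (0.00817), Csf1r (0.0109), Mrc1 (0.0152) and Mpeg1 (0.0162). Ctss, Lyz2, C1qa, Fcgr3, Cd14, C1qc, Tyrobp, Cx3cr1, Fcer1g, C1qb and Itgam passed with adjusted p-values of 0.0238 to 0.0468, and Pf4 had the highest, at 0.622. The members' count depended on the tool and the fit. It was 28 for DESeq2, against 43.2% of all genes, and 29 for limma-voom, against 48.9%. In edgeR without the genotype term it was 6 of 31 (19.4%), below the 34.6% of all genes, so the members' excess over all genes was not present in that fit. Fits with 1 library left out keep a single library in that number, so no count is read from them.

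Number 3 was the high one for most members. In log2 terms the members' median difference was 2.72 for number 3 over 1, against 0.02 over all genes, and 30 of the 31 were higher, against 51.8% of all genes. The exception was Lsp1, at -0.21. This contrast reached no adjusted call in any gene (0%), and at an unadjusted p under 0.05 it gave 26 of the 31 members against 12.6% of all genes (1809). For number 2 over 1 the members' median was 1.12, against -0.23 over all genes, and 8 members (25.8%) were called, against 36.2% of all genes. For number 3 over 2 it was 0.97, against 0.34 over all genes, and 6 members (19.4%) were called, against 31.3% of all genes. Counting only genes called higher, it was 8 of 31 members (25.8%) against 16.0% of all genes for number 2 over 1, and 5 of 31 (16.1%) against 17.4% for number 3 over 2.

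The order over numbers varied among the members. The C1q chains and Trem2 were about as high in number 2 as in number 3, at log2 differences over number 1 of 4.13 and 3.39 for C1qa, 3.34 and 3.29 for C1qb, 2.77 and 3.33 for C1qc and 3.38 and 3.37 for Trem2 (numbers 2 and 3). Mrc1 was high in number 3 alone, at 4.39 over number 1 and 5.51 over number 2. Coro1a was 2.86 higher in number 2 than in number 1. Aif1 and Ms4a7, both of low level, were also high in numbers 2 and 3. Their log2 differences over number 1 were 3.42 and 4.07 for Aif1 and 2.82 and 3.19 for Ms4a7. Tubule markers were also highest in number 3, the stromal sum was lowest in number 2, and Cdh16 stood at 48.5 CPM or more only in number 3. The part of these in the members' pattern was not tested.

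**Figure D4:**
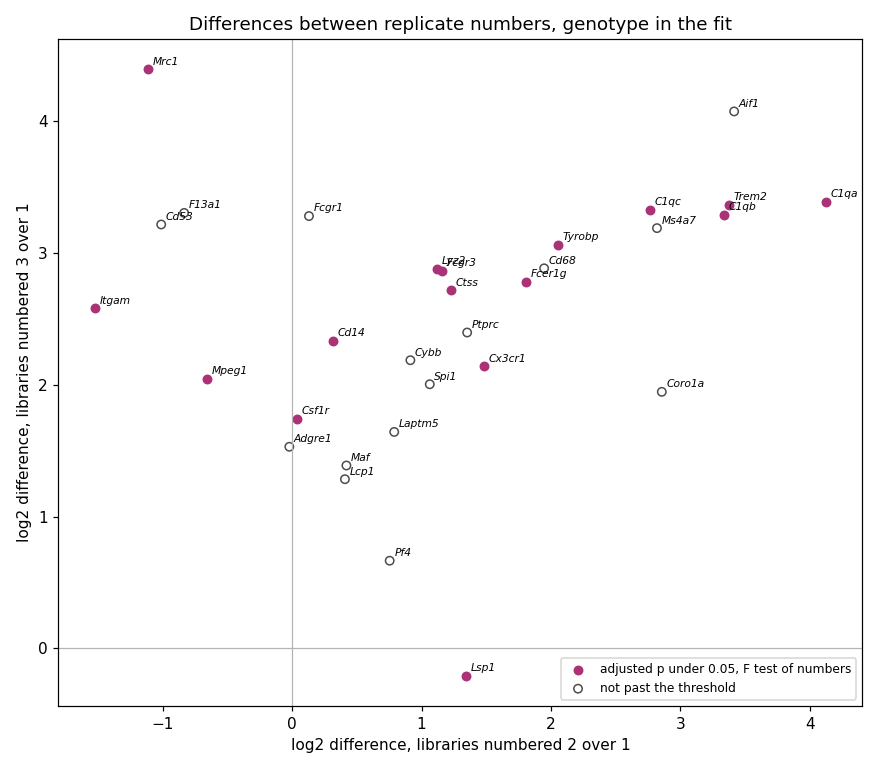
Log2 differences of each tested member between replicate numbers with genotype in the fit, number 2 over 1 on the horizontal axis and number 3 over 1 on the vertical axis. All points except Lsp1 (at -0.21) lie above 0 on the vertical axis, and the C1q chains, Trem2, Aif1, Coro1a and Ms4a7 lie far to the right.

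Levels can be set beside each other only per length. In CPM per kilobase of exon, averaged over the 6 libraries, Lyz2 led with 121, followed by C1qa (54.1), Lsp1 (53.6), C1qb (51.1), Fcer1g (32.3), Tyrobp (27.1), C1qc (26.4), Cd68 (26.1), Pf4 (24.6) and Ctss (20.7). Neighbours in this order differ by less than their spread over libraries: C1qa ran from 1.77 to 77.7 in Foxp1-deficient and from 13.6 to 90.7 in control libraries. Csf1r had 16.8 CPM per kilobase and Adgre1 9.67. At the low end were Ptprc (0.453), Folr2 (0.271), Timd4 (0.185) and Cd163 (0.0157). The order depends on the deposited exon length, which for Ptprc is 18313 bases.

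Genes outside the 35, from the wider macrophage programme and from other cell types, did not pass the genotype test either. Over 17 such lists with 174 genes, 112 were tested and edgeR and DESeq2 called 0 of them. By edgeR 1 had an unadjusted p under 0.05, against 0.720% of all genes tested. Among 28 other core macrophage genes, 23 of the 26 tested had negative fold changes, against 46.4% of all genes tested, with a median of -0.54. The most abundant were Axl (log2 fold change 0.28, SE 0.53), the scavenger receptor Msr1 (-0.10, SE 0.83) and Mertk (close to 0, SE 0.67). Axl, a receptor tyrosine kinase that stromal cells also express, made up most of that list's level. Of 9 kinases and effectors downstream of ITAM adaptors, 8 were negative with a median of -0.69, as for Rac2 (-0.81, SE 0.93), Inpp5d (-1.16, SE 0.90) and Lyn (-0.27, SE 0.50). Of the 8 leukocyte transcription factors tested 7 were negative, with a median of -0.42, and Cebpb was the exception at 0.41 (SE 0.68). The summed levels did not all follow these signs. Their ratio of means, Foxp1-deficient over control, was 1.04 for the core macrophage list, 0.703 for the ITAM list and 1.04 for the transcription factors. These lists were chosen with earlier results of these data known.

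Colony-stimulating factor and chemokine ligands, tested as a further list of 9, had fold changes in both directions. Csf1, the growth factor for Csf1r, had 496, 179 and 476 CPM in Foxp1-deficient libraries and 372, 216 and 658 CPM in control libraries, a log2 fold change of -0.11 (SE 0.48). Cxcl12 had 56.1, 22.3 and 197 CPM in Foxp1-deficient libraries and 153, 47.0 and 355 CPM in control libraries (-1.03, SE 0.83). Ccl2, which draws monocytes, had a log2 fold change of -0.28 (SE 0.55). Over the 8 ligands tested, 3 were positive and 5 negative.

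Summed markers of other blood and vessel cells were lower in some lists and not in others, some of them at few counts. Granulocyte genes (12) summed to 1.43, 1.75 and 3.75 CPM in Foxp1-deficient libraries and 17.0, 18.5 and 6.10 CPM in control libraries, so these groups did not overlap. The list was led by the granule enzyme Mpo at 0.892, 0 and 0.211 CPM in Foxp1-deficient libraries and 11.6, 5.33 and 2.75 CPM in control libraries. T and NK cell genes (12) summed to 4.74 to 8.28 CPM in Foxp1-deficient and 9.77 to 13.2 CPM in control libraries. These groups did not overlap either, with 4 of the genes at 0 in every library. The groups overlapped for Trac (2.37 to 6.01 CPM in Foxp1-deficient and 2.93 to 10.3 CPM in control libraries) and did not for Lck. In the granulocyte list and in the T and NK cell list 2 genes each were tested, and edgeR called 0. Of all single genes tested, 2.07% had their groups apart in this direction. B cell genes (8) stayed at or under 4.17 CPM in Foxp1-deficient and 5.00 CPM in control libraries. The 7 MHC class II genes reached at most 26.3 CPM in Foxp1-deficient and 23.9 CPM in control libraries. Platelet and megakaryocyte genes (7) were high in control library 1 alone, at 75.3 CPM, against 10.6 to 15.9 CPM in the other 5 libraries.

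Monocyte genes (7) ran the other way, at 212, 44.8 and 144 CPM in Foxp1-deficient libraries and 102, 31.1 and 70.1 CPM in control libraries. Nearly all of that came from Vcan, a matrix proteoglycan that stroma also makes, at 207, 37.9 and 139 CPM in Foxp1-deficient libraries and 94.9, 27.7 and 64.8 CPM in control libraries. Endothelial genes (11) summed to 170, 120 and 217 CPM in Foxp1-deficient libraries and 203, 71.6 and 182 CPM in control libraries, and erythroid genes to 833, 1179 and 782 CPM in Foxp1-deficient libraries and 964, 1014 and 319 CPM in control libraries. Both sums overlapped between the groups. The angiopoietin receptor Tek made up most of the endothelial sum, at 134, 91.5 and 136 CPM in Foxp1-deficient libraries and 113, 48.8 and 73.0 CPM in control libraries. Gene by gene, 6 of the 10 endothelial genes tested had negative log2 fold changes and their median was -0.98, close to the members' -0.93. The part of any of these cell types in the members' levels was not tested.

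**Figure D5:**
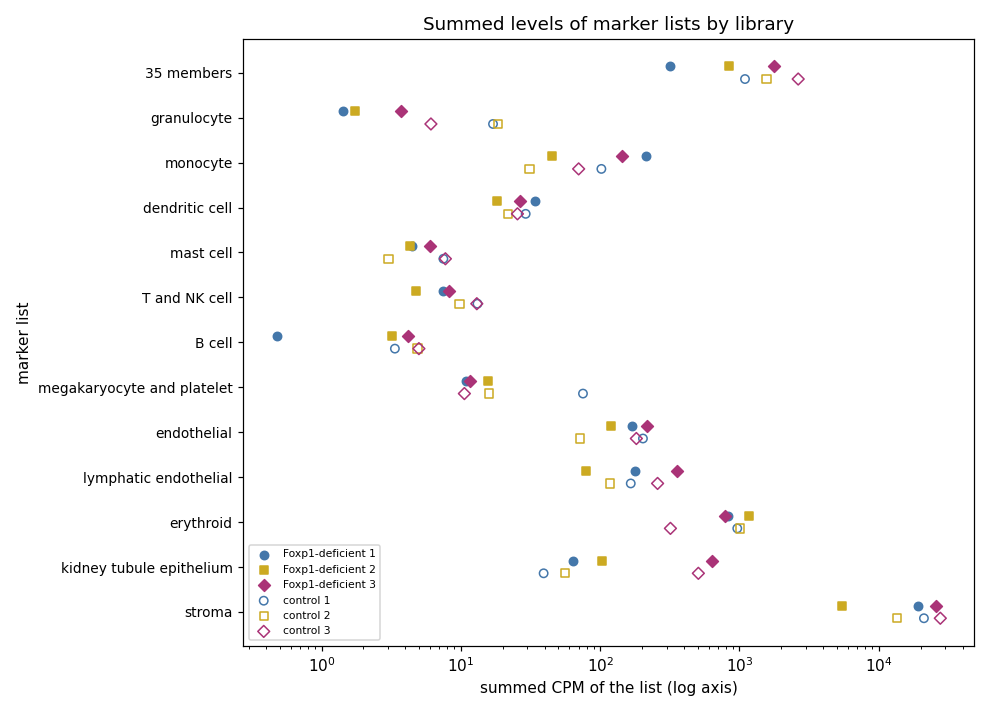
Summed CPM of marker lists (vertical axis) in each library on a log horizontal axis, with filled symbols for Foxp1-deficient libraries above open symbols for control libraries and 1 colour for each number. The granulocyte sums of the groups do not overlap (at most 3.75 CPM in Foxp1-deficient and at least 6.10 CPM in control libraries), whereas tubule sums reach 636 CPM in Foxp1-deficient and 507 CPM in control libraries, both in number 3.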

How the data were processed

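RNA sequencing counts were analysed from 6 libraries of HA-tagged ribosome pulldowns. Per the file headers, the authors counted fragments over mm10 exons (annotation 86) with featureCounts 1.5.1 and no strand option, and the deposited values are raw counts for each gene symbol. Its exon length in bases, deposited by the authors, was used for levels per kilobase only. Trimmomatic, STAR and DESeq2 appear among the tools in the submitters' processing notes, with no version or role. Alignment settings were not given in the sources used.

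Genes were compared in edgeR 4.0.16 under R 4.3.3, using TMM, filterByExpr and the quasi-likelihood F test, two-sided, adjusted by Benjamini-Hochberg over all 14311 genes at 0.05. Each SE was derived from that test, as the absolute log2 fold change divided by the square root of F. DESeq2 1.42.0 and limma 3.58.1 (voom with quality weights) were alternatives, and the scripts were tested on simulated data. CPM are per library total, log2 ratios within numbers used a pseudocount of 0.5, and 3 counts, the most a count of 0 allows, are 0.158 to 0.309 CPM. They cover counting error only, as duplicate reads cannot be told from separate molecules. Same-numbered libraries deviated together from their group means (r = 0.574, 0.530 and 0.617 over genes for numbers 1, 2 and 3), so the numbers in the titles were taken to pair them. That choice was made from these same data, and no label states what a number stands for. The members, the gene lists and the tests were chosen with earlier results of these data known. Members of at least 10 CPM on average (26 of 35) are given in every library, the others by ranges, and the 3 genes of highest mean CPM were eligible for naming from each other list.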

Additional observations from a re-analysis of the deposited data

How the results depend on the processing

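Over 17 alternatives (other scalings, filters and tools, the replicate block, and left-out libraries), the tested members' median log2 fold change stayed negative, and 23 to 32 members were lower in Foxp1-deficient libraries. Leaving out 1 library at a time, that median ran from -2.01 (without Foxp1-deficient library 3) to -0.43 (without Foxp1-deficient library 1), and the log2 ratio of the summed CPM, -0.87 with all libraries, ran from -1.62 to -0.45. With the replicate block the median was -1.33, and the log2 ratios of sums within numbers averaged -1.10. Genes called between genotypes numbered 0 except with DESeq2 (6) and with the libraries numbered 2 left out plus the replicate block (30), where 1 gene of the other lists, Vcan, was among them. That last fit kept only the libraries numbered 1 and 3, which leaves little to estimate variation from. Leaving out the libraries numbered 1 or 3 was chosen after seeing the data. The number test called 4394 genes and 16 members. With DESeq2 these were 6177 and 28, with voom 6998 and 29, and when 1 library was left out 2375 to 9654 and 13 to 30. Without the genotype term they were 4948 and 6, and the members' share (19.4%) then fell below that of all genes (34.6%). The cause of these shifts was not tested. Single members changed sign in 10 of the 17 alternatives. Mrc1 turned negative with the block, with voom, without Foxp1-deficient library 3, without both libraries numbered 3, and with the block without those numbered 2. Positive values appeared in 8 members without Foxp1-deficient library 1 (the C1q chains among them), in 4 without control library 3, in 2 without Foxp1-deficient library 2, in 2 without both libraries numbered 1 and in 1 without control library 2. Depth limits the 9 members under 10 CPM.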
